A study of Mus musculus with 6 samples.

Results

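Interferon-stimulated genes and genes that sense nucleic acids in the cytosol were compared between *Dnm1l*-deleted and control mouse muscle. The members are a list of 35 gene symbols, found among the 27179 genes of the deposited count files by symbol. All 35 were listed in each of the 6 libraries, and 33 passed the filter on low counts; the exceptions were *Isg15* and *Cxcl10*. The rule picks rows by symbol alone, though the symbols were listed with earlier results of these data known. The list asks whether damage to mitochondria is read out in muscle as an interferon response.

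The RNA came from quadriceps muscle on a normal chow diet. The 3 miDrp1KO libraries, A, E and F, are from mice with floxed alleles of *Dnm1l*, the gene of the mitochondrial fission GTPase Drp1, and the HSA-MerCreMer transgene, a Cre recombinase that tamoxifen activates and that the human skeletal actin (*ACTA1*) promoter drives. The 3 control libraries, B, C and D, are labelled Control f/f, and the floxed alleles were on a C57BL/6J background. By the methods of the study both groups received tamoxifen at 3 months of age, as 4 daily doses of 50 mg/kg, and the muscle was taken 3 weeks post deletion. The promoter confines Cre to muscle fibres, so the vessels, macrophages, fibroblasts and other cells of the muscle keep *Dnm1l*. The labels give no sex, and each library carries a title number of its own. The p-values given measure the spread between these 6 libraries.

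A cell that finds DNA or double-stranded RNA in its cytosol makes type I interferon. The DNA sensor cGAS signals through STING, and the RNA helicases RIG-I and MDA5 signal through MAVS on the mitochondrial outer membrane; both routes meet at the kinase TBK1, which phosphorylates IRF3. Secreted interferon then acts through its receptor and the kinases JAK1 and TYK2 to form ISGF3, a complex that holds STAT2 and IRF9, which binds the interferon-stimulated response element and turns on antiviral genes. Mitochondrial DNA or RNA that leaks into the cytosol can be read by the same sensors. The genes of cGAS, STING and MAVS are not among the 35 members and are described with the other genes of the pathway.

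Libraries held 13989588 to 62042255 counts in the control group and 20028624 to 28829756 in the miDrp1KO group. The deleted gene, *Dnm1l* (Entrez 74006), stood at 156, 114 and 140 CPM (counts of the gene per 1e6 counts of the library, with library totals scaled by edgeR's TMM method) in control B, C and D, against 70.6, 81.3 and 66.2 CPM in miDrp1KO A, E and F. The groups did not overlap, and the log2 fold change was −0.91 ± 0.18 (SE, adjusted p = 0.362 by the quasi-likelihood test of edgeR, adjusted by Benjamini and Hochberg's method). The summed level of 8 myofibre markers was 134164 to 160330 CPM in the control and 67778 to 124608 CPM in the miDrp1KO libraries. For 8 macrophage markers it was 156 to 286 CPM in the control and 224 to 255 CPM in the miDrp1KO group. In bulk muscle, fewer cells of a type and less RNA per cell cannot be told apart.

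No member passed the quasi-likelihood test of edgeR between miDrp1KO and control muscle. Of the 33 tested, 0 had an adjusted p under 0.05, against 0.0121% of the 16483 genes tested, which is 2 genes, and the lowest adjusted p among the members was 0.507. The number with an unadjusted p under 0.05 was 0 as well, where 10.9% of all genes passed that mark. By other tools, limma voom and DESeq2 without independent filtering also called 0 members, and each gave 1 member an unadjusted p under 0.05, *Mx2* and *Cxcl10* respectively. The 3 miDrp1KO libraries lay wholly above the 3 controls in 2 tested members, *Mx2* and *Xaf1*, and wholly below them in 0, while 7.67% of all genes lay wholly above and 10.3% wholly below. The log2 fold change (miDrp1KO minus control) was above 0 for 22 members and below 0 for 11, and 52.0% of all genes were above 0 and 48.0% below. The median over the members was 0.078, beside 0.017 over all genes, and the order of these medians turned under DESeq2 (0.057 beside 0.087), with no filter on low counts (0.087 beside 0.11) and without control D (0.036 beside 0.037). The values ran from −0.54 for *Rsad2* to 0.83 for *Mx2*. Without control C the median over the members was 0.22, beside 0.023 over all genes, and without miDrp1KO F it was 0.16, beside 0.034.

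How large a change these libraries could resolve differed from member to member. The 95% confidence interval of the fold change stayed within 2-fold in both directions for 21 of the 33 members (63.6%), close to the 61.7% of all genes. Its upper bound lay below a 2-fold rise for 26 members (78.8%), beside 71.1% of all genes. The 7 members whose interval reached a 2-fold rise were *Dhx58*, *Isg20*, *Mx1*, *Mx2*, *Oas1a*, *Oas3* and *Ifi44*, all with a control mean of 1.12 CPM or lower. In 28 members (84.8%) the difference of the group means was smaller than the larger of the SDs within the groups, which held for 68.4% of all genes. Summed over all 35 members, the level was 193, 230 and 179 CPM in control B, C and D, against 218, 208 and 194 CPM in miDrp1KO A, E and F, so that the groups overlapped.

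**Figure D1:**
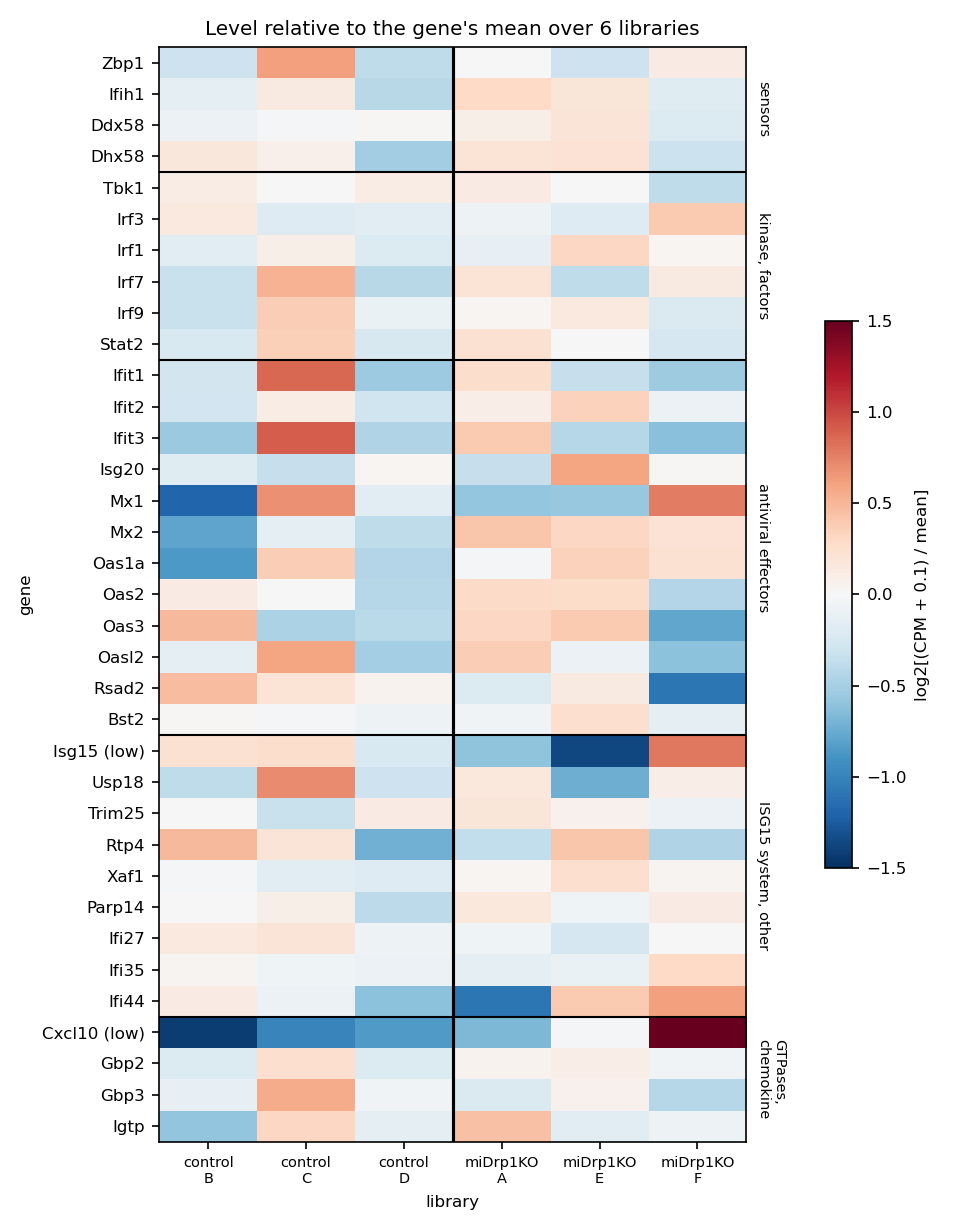
Level of each of the 35 members (rows, ordered by role) in each library (columns, controls left of the line), as the log2 ratio of CPM + 0.1 to the gene's mean over the 6 libraries. Red is above that mean and blue below; "low" marks the 2 members that failed the filter. Control C has the highest value of the 6 libraries in 12 of the 33 tested members, and no block of rows is red across the 3 miDrp1KO columns and blue across the controls.

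**Figure D2:**
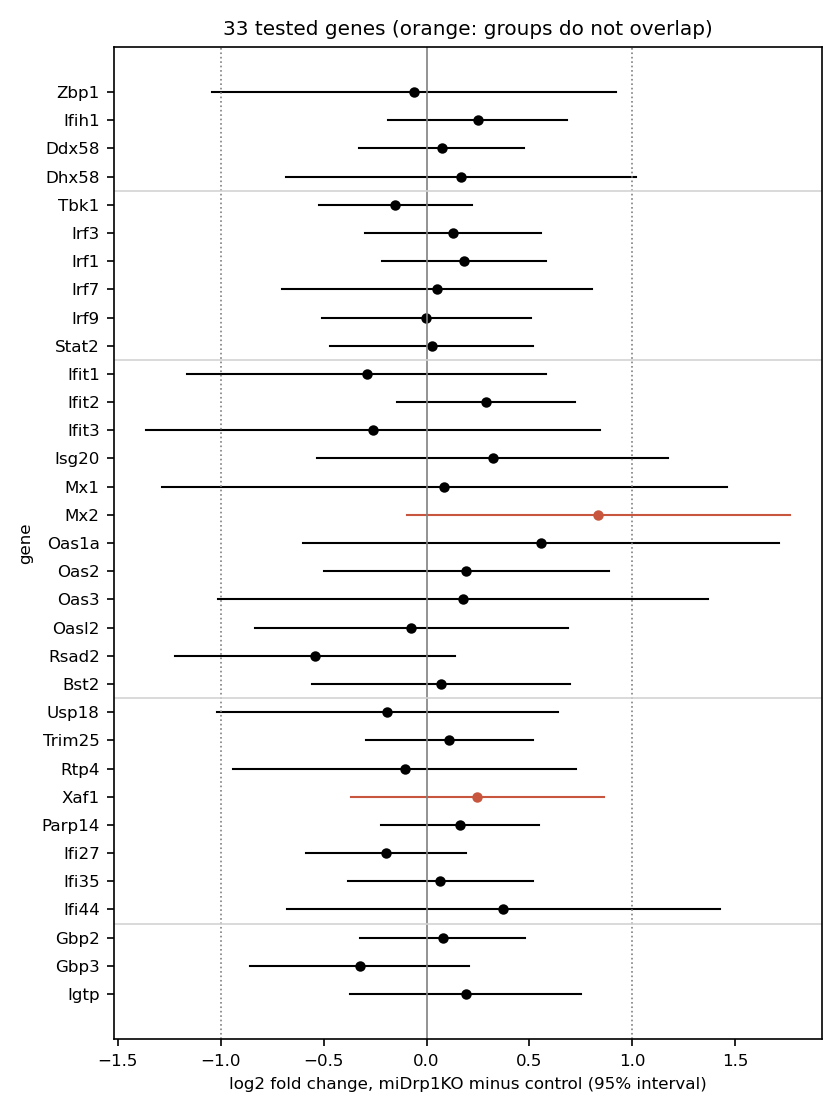
Log2 fold change of the 33 tested members (points) with its 95% confidence interval from edgeR's quasi-likelihood fit (lines), ordered by role. Dotted lines mark a 2-fold change; every interval crosses 0, and *Mx2* and *Xaf1*, in orange, are the members whose groups do not overlap.

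The sensors among the members were expressed in muscle at low to moderate levels, and none of the 4 separated the groups; 3 log2 fold changes were above 0 and 1 below, with a median of 0.12. *Ifih1* (Entrez 71586; chr2:62595618-62646255 of GRCm38) encodes MDA5, the sensor of long double-stranded RNA. Its level was 12.4, 14.9 and 10.2 CPM in control B, C and D, against 16.8, 15.5 and 11.9 CPM in miDrp1KO A, E and F. Libraries A and E lay above all controls and library F below control B. Group means were 12.5 ± 2.38 CPM (SD, n = 3) in control muscle against 14.7 ± 2.5 CPM (SD, n = 3) in miDrp1KO muscle. This corresponds to a log2 fold change of 0.25 ± 0.20 (SE, unadjusted p = 0.239, adjusted p = 0.678), with a 95% interval from −0.19 to 0.68. It was 0.13 without control D, 0.37 without control C and 0.40 without miDrp1KO F. *Ddx58* (Entrez 230073; chr4:40203777-40239825) encodes RIG-I, the sensor of 5′ triphosphate RNA. It was measured at 7.77, 8.09 and 8.4 CPM in the controls, against 8.8, 9.49 and 7.2 CPM in miDrp1KO A, E and F, where library F was the lowest of all 6 and library E the highest. Its log2 fold change of 0.073 ± 0.18 (SE, adjusted p = 0.914) had an interval from −0.33 to 0.47, which leaves a 2-fold change outside it, and was −0.019 without library E and 0.20 without library F.

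*Zbp1* (Entrez 58203; chr2:173206612-173218959) encodes a sensor of Z-form nucleic acids and is itself induced by interferon. It was near 1 CPM, at 0.758, 1.53 and 0.716 CPM in control B, C and D, against 0.972, 0.76 and 1.06 CPM in miDrp1KO A, E and F. The miDrp1KO values all lay inside the control range. The log2 fold change was −0.060 ± 0.45 (SE, adjusted p = 0.975), and 0.30 without control C. *Dhx58*, which encodes LGP2, a helicase that tunes RIG-I and MDA5, ran from 0.783 to 1.33 CPM in the controls and from 0.912 to 1.37 CPM in the miDrp1KO group. Its log2 fold change was 0.17 ± 0.39 (SE).

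The kinase and the transcription factors carry the signal from the sensors and from the interferon receptor, and 4 of these 6 members had a log2 fold change above 0, with a median of 0.037. For each of the 6, the difference of the group means was smaller than the larger SD within a group. *Tbk1* (Entrez 56480; chr10:121546455-121586794) encodes the kinase that STING and MAVS share. Its level was 22.4, 20.6 and 22.4 CPM in the controls, against 22.5, 20.5 and 15.8 CPM in miDrp1KO A, E and F. Library A lay just above the highest control, library E just below the lowest, and library F further below. A log2 fold change of −0.15 ± 0.17 (SE, adjusted p = 0.780) was fitted, with an interval from −0.52 to 0.22, and it was −0.00052 without library F and −0.24 without library A. *Irf3* (Entrez 54131; chr7:44997648-45002848), whose product TBK1 phosphorylates, stood at 17.5, 13.8 and 14.1 CPM in the controls, against 15, 13.9 and 20.8 CPM in miDrp1KO A, E and F. Here library F was the highest of the 6, and libraries A and E were within the control range. Its log2 fold change was 0.13 ± 0.19 (SE, adjusted p = 0.845), and −0.047 without library F.

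*Irf7* (Entrez 54123; chr7:141263183-141266499) encodes the factor that amplifies type I interferon and is a common readout of the response. It was measured at 1.8, 3.35 and 1.7 CPM in control B, C and D, against 2.67, 1.74 and 2.54 CPM in miDrp1KO A, E and F. Control C was the highest library and control D the lowest, and all miDrp1KO values fell between them. On the log2 scale the difference was 0.050 ± 0.34 (SE, adjusted p = 0.973), and the sign changed in each of the 4 fits that left out A, B, D or F. *Irf9*, the DNA-binding part of ISGF3, had a log2 fold change of −0.0015 ± 0.23 (SE) around 6.15 CPM in control and 6.08 CPM in miDrp1KO muscle. *Stat2*, its partner, had one of 0.024 ± 0.22 (SE) around 7.84 and 7.91 CPM. *Irf1*, a factor that interferon gamma induces, ran from 10.5 to 12.8 CPM in the controls and from 11.1 to 15 CPM in the miDrp1KO group, with a log2 fold change of 0.18 ± 0.18 (SE).

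Among the 12 genes grouped as antiviral effectors, 8 log2 fold changes were above 0 and 4 below, with a median of 0.13. Some of their products bind viral RNA, make the second messenger 2′-5′ oligoadenylate or block virus assembly. RNA levels do not show whether each product works in these mice. *Mx2* (Entrez 17858; chr16:97536081-97560901), a dynamin-like GTPase, had the lowest unadjusted p of the 33 members. Its level was 0.426, 0.729 and 0.6 CPM in control B, C and D, against 1.12, 1.03 and 0.96 CPM in miDrp1KO A, E and F. The groups did not overlap, as held for 18.0% of all genes tested in one direction or the other. Group means were 0.585 ± 0.152 CPM (SD, n = 3) and 1.04 ± 0.0792 CPM (SD, n = 3), with a two-sided exact permutation p of 0.1, the smallest that 3 libraries against 3 allow. The log2 fold change of 0.83 ± 0.42 (SE, unadjusted p = 0.0742, adjusted p = 0.507) had an interval from −0.096 to 1.77. It ran from 0.68 to 0.95 over the alternative settings that tested the gene, with adjusted p from 0.394 to 0.877. *Mx1*, its neighbour on chromosome 16, spread from 0.284 to 1.31 CPM among the controls and from 0.486 to 1.39 CPM among the miDrp1KO libraries. For *Mx1* the log2 fold change was 0.087 ± 0.63 (SE). In the transcript models 4.38% of the 50-base windows of *Mx2* also occur in *Mx1*, and the sources used here do not state how reads from such windows were counted.

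*Rsad2* (Entrez 58185; chr12:26442743-26456452), which encodes the antiviral enzyme viperin, had the lowest log2 fold change of the members. It stood at 5.07, 4.23 and 3.81 CPM in control B, C and D, against 3.16, 4.02 and 1.68 CPM in miDrp1KO A, E and F. Library E lay inside the control range and libraries A and F below it. Group means were 4.37 ± 0.638 CPM (SD, n = 3) and 2.95 ± 1.18 CPM (SD, n = 3). In the fit its log2 fold change was −0.54 ± 0.31 (SE, unadjusted p = 0.107, adjusted p = 0.554). Without library F it was −0.25 and without library E −0.85.

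The *Ifit* genes encode proteins that bind viral RNA and lie side by side on chromosome 19, and the 3 members had log2 fold changes of both signs. *Ifit2* (Entrez 15958; chr19:34550550-34576534) was measured at 7.91, 10.5 and 7.88 CPM in control B, C and D, against 10.4, 12.4 and 9.12 CPM in miDrp1KO A, E and F. Libraries A and F lay below control C and above the other controls. For *Ifit2* the log2 fold change was 0.29 ± 0.20 (SE, unadjusted p = 0.173, adjusted p = 0.617), and 0.16 without library E. *Ifit1* (Entrez 15957; chr19:34640889-34650009) stood at 3.36, 7.51 and 2.78 CPM in the controls, against 4.91, 3.19 and 2.78 CPM in miDrp1KO A, E and F. Control C was the highest of the 6 libraries, and the miDrp1KO values all lay within the control range. The log2 fold change of −0.29 ± 0.39 (SE, adjusted p = 0.820) was 0.22 without control C. *Ifit3* (Entrez 15959; chr19:34583119-34588982) was likewise highest in control C, with 3.93, 11.1 and 4.26 CPM in B, C and D beside 7.73, 4.31 and 3.74 CPM in miDrp1KO A, E and F. Its highest control was 2.82 times its lowest, and its log2 fold change was −0.26 ± 0.47 (SE).

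*Ifit3* has a near copy, *Ifit3b*, in which 51.2% of its 50-base windows also occur, so reads from them cannot be assigned by sequence. *Ifit3b* was at 5.11, 6.49 and 4.05 CPM in control B, C and D, against 7.34, 5.49 and 5.9 CPM in the miDrp1KO libraries. *Oas1a* shares 57.6% of its windows with *Oas1g* and *Oas1b* and is uncertain for the same reason. It ran from 0.284 to 0.802 CPM in the controls and from 0.583 to 0.784 CPM in the miDrp1KO group, with a log2 fold change of 0.56 ± 0.53 (SE). The other synthetase genes gave log2 fold changes of 0.19 for *Oas2*, 0.18 for *Oas3* and −0.074 for the related *Oasl2*. *Isg20*, which encodes an exonuclease, had a log2 fold change of 0.32 ± 0.39 (SE), with miDrp1KO E the highest library at 1.76 CPM and the other 5 between 0.875 and 1.17 CPM. *Bst2*, which encodes tetherin, a protein that holds budding virus at the membrane, ran from 1.82 to 1.94 CPM in control and from 1.73 to 2.3 CPM in miDrp1KO muscle.

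*Isg15* (Entrez 100038882; chr4:156199424-156200818) encodes the ubiquitin-like protein that is attached to other proteins during the response. It failed the filter, with 9, 6 and 17 counts in control B, C and D, against 4, 3 and 14 counts in miDrp1KO A, E and F. Scaled by depth, these were 0.426, 0.437 and 0.283 CPM in the controls, against 0.194, 0.0735 and 0.672 CPM in the miDrp1KO libraries. The lowest and the highest values were both in miDrp1KO libraries, E and F. With no filter on low counts, edgeR gave a log2 fold change of −0.31 ± 0.81 (SE, unadjusted p = 0.707, adjusted p = 0.934), and it was 0.24 in the fit without library E. The exact Poisson interval of the 3 counts in library E ran from 0.619 to 8.77 counts, and such an interval covers counting error only. *Usp18*, which encodes the protease that removes ISG15, ran from 2.04 to 4.45 CPM in the controls and from 1.57 to 3.01 CPM in the miDrp1KO group, with control C highest and a log2 fold change of −0.19 ± 0.38 (SE). *Trim25*, the ubiquitin ligase that activates RIG-I, had a log2 fold change of 0.11 ± 0.18 (SE) around 9.93 and 10.8 CPM.

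*Xaf1* (Entrez 327959; chr11:72301461-72313733) encodes a partner of the inhibitor of apoptosis XIAP. Its level was 1.94, 1.75 and 1.7 CPM in control B, C and D, against 1.99, 2.35 and 2.02 CPM in miDrp1KO A, E and F. The groups did not overlap, but miDrp1KO A lay close to control B. Group means were 1.8 ± 0.128 CPM (SD, n = 3) and 2.12 ± 0.202 CPM (SD, n = 3). The fitted log2 fold change was 0.25 ± 0.28 (SE, unadjusted p = 0.394, adjusted p = 0.781), and 0.16 without library E. *Ifi27* (Entrez 52668; chr12:103434189-103440245), whose gene overlaps *Ifi27l2a*, was at 10, 10.3 and 8.56 CPM in the controls, against 8.6, 7.57 and 9.02 CPM in miDrp1KO A, E and F. Libraries A and F lay inside the control range and library E below it. The fitted value was a log2 fold change of −0.20 ± 0.18 (SE, unadjusted p = 0.289, adjusted p = 0.715), or −0.12 without library E. The remaining members of this group had log2 fold changes of −0.11 for *Rtp4*, 0.16 for the ADP-ribosyltransferase gene *Parp14*, 0.067 for *Ifi35* and 0.37 for *Ifi44*. *Ifi44* had its lowest library, A, at 0.535 CPM and its highest, F, at 1.97 CPM, both in the miDrp1KO group.

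*Cxcl10* (Entrez 15945; chr5:92346638-92348889) encodes the chemokine that draws T cells to tissue under interferon. It was counted 4, 4 and 20 times in control B, C and D, against 8, 27 and 46 times in miDrp1KO A, E and F. These counts correspond to 0.189, 0.292 and 0.333 CPM in the controls, against 0.389, 0.662 and 2.21 CPM in the miDrp1KO libraries. All miDrp1KO libraries lay above all controls, with library F far above libraries A and E. The gene overlaps *Art3*, and the sources used here do not state how reads on overlapping genes were counted. Group means were 0.271 ± 0.074 CPM (SD, n = 3) and 1.09 ± 0.981 CPM (SD, n = 3), so that the SD of the miDrp1KO group was nearly as large as its mean. The gene failed the filter; without it, the log2 fold change was 1.93 ± 0.64 (SE, unadjusted p = 0.00535, adjusted p = 0.319 from edgeR over 26457 genes). The exact Poisson interval of the 8 counts in library A ran from 3.45 to 15.8 counts, and that of the 20 counts in control D from 12.2 to 30.9 counts.

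Of the 3 tested GTPase genes that interferon gamma induces, 2 had a log2 fold change above 0 and 1 below. *Gbp3* (Entrez 55932; chr3:142560016-142573213), a guanylate-binding protein gene, was at 5.49, 8.82 and 5.73 CPM in the controls, against 5.1, 6.25 and 4.42 CPM in miDrp1KO A, E and F. Libraries A and F lay below all controls and library E below control C. Its log2 fold change was −0.33 ± 0.24 (SE, unadjusted p = 0.206, adjusted p = 0.650), and it was −0.11 without control C and −0.20 without miDrp1KO F. *Gbp2* had a log2 fold change of 0.078 ± 0.18 (SE) and *Igtp*, an immunity-related GTPase gene, one of 0.19 ± 0.25 (SE). The highest library was control C for *Gbp2* and *Gbp3* and miDrp1KO A for *Igtp*.

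**Figure D3:**
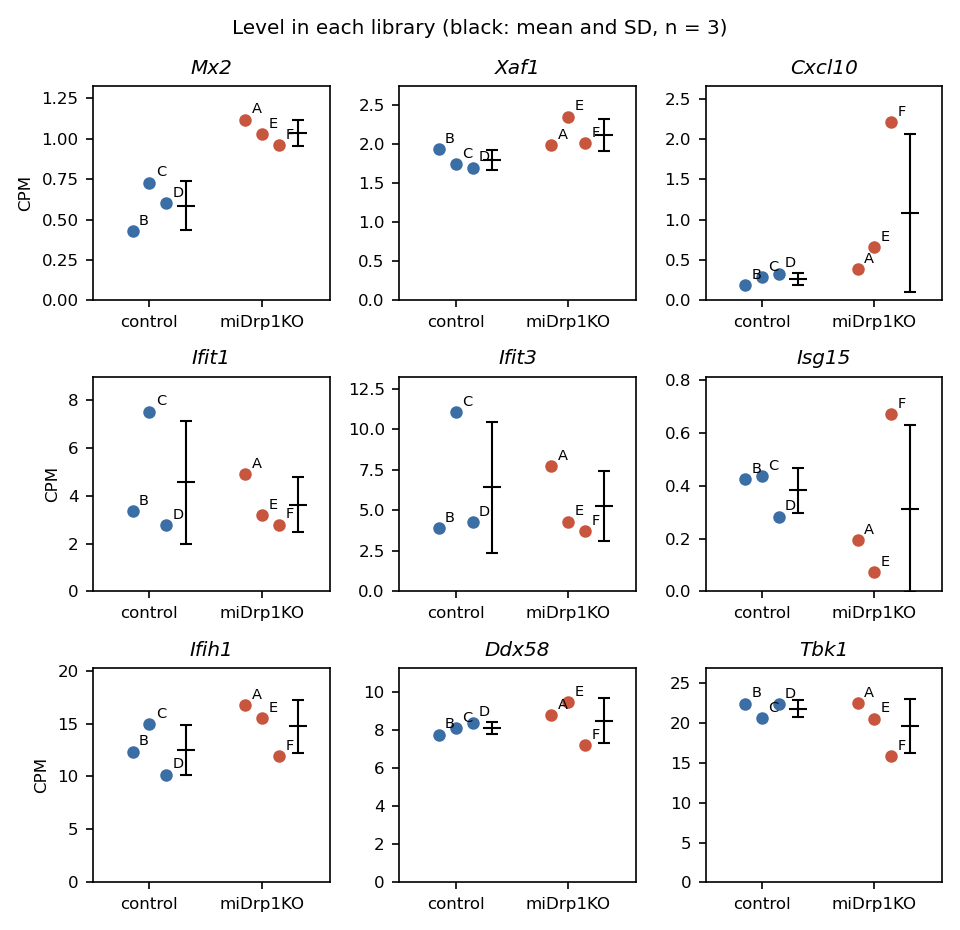
CPM of 9 members in each library (blue, control B, C and D; red, miDrp1KO A, E and F), with the mean and SD of each group in black (n = 3). *Mx2*, *Xaf1* and *Cxcl10* in the top row do not overlap between groups, *Ifit1* and *Ifit3* are highest in control C, and the miDrp1KO group of *Isg15* spans the whole range.

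Levels can be set against each other only per length. Per kilobase of exon, the highest control means among the members were 6.58 CPM per kb for *Ifi27*, 5.57 for *Tbk1*, 4.67 for *Gbp2*, 4.40 for *Irf3* and 4.15 for *Igtp*. The lowest were 0.0873 CPM per kb for *Oas3*, 0.120 for *Cxcl10* and 0.162 for *Mx2*. The members whose groups did not overlap thus ranked 27, 33 and 34 of 35 in control level, for *Xaf1*, *Mx2* and *Cxcl10*.

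Libraries of the same group differed in the members' levels. Control C was the highest of the 3 controls in 19 of the 33 tested members (57.6%), beside 37.8% of all genes, and control D was the highest in 3 (9.09%), beside 26.9% of all genes. Over all 6 libraries, control C was the highest in 12 members, miDrp1KO A and E in 7 each, F in 4, control B in 3 and control D in 0. The lowest value fell in control D and in miDrp1KO F in 10 members each. *Ifit1*, *Ifit3*, *Oasl2*, *Usp18*, *Irf7* and *Zbp1* were named for this pattern after their values were seen, and each was highest in control C. Without control C, 28 of 34 members tested had a log2 fold change above 0, and 0 passed an adjusted p of 0.05 by edgeR. In that fit 2 of 17900 genes passed, and the median log2 fold change over all genes was 0.023, beside 0.22 over the members.

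Macrophage markers were also highest in control C, as a sum and in 5 of 8 genes. Their sum was 156, 286 and 163 CPM in control B, C and D, against 255, 224 and 224 CPM in miDrp1KO A, E and F, and *Adgre1*, the F4/80 antigen gene, was at 4.36, 11.4 and 5.88 CPM in the controls, against 6.61, 7.6 and 6.24 CPM in the miDrp1KO group. The median log2 fold change over the 8 markers was 0.19, with 5 above 0 and 3 below, and 0 had an adjusted p under 0.05. *Lyz2*, a lysozyme gene, was at 41.1, 84.6 and 46.2 CPM in the controls, against 82.4, 83.6 and 88.7 CPM in miDrp1KO A, E and F, so that control C lay within the miDrp1KO range. Its log2 fold change was 0.57 ± 0.25 (SE, unadjusted p = 0.0466, adjusted p = 0.451), or 0.94 without control C. The groups did not overlap for *Cd68*, at 2.41, 5.39 and 4.43 CPM in the controls, against 6.66, 5.88 and 5.76 CPM in the miDrp1KO libraries, with a log2 fold change of 0.59 ± 0.28 (SE, adjusted p = 0.467). Plasmacytoid dendritic cells are a main source of type I interferon in blood. The genes listed as their markers summed to 97.8 to 102 CPM in the controls, against 98.9 to 112 CPM in the miDrp1KO libraries. This sum came mostly from *Tcf4*, so it follows 1 gene and was not checked as a measure of these cells. *Irf8*, of the same list, had means of 4.70 CPM in control and 4.78 CPM in miDrp1KO muscle. T and NK cell markers summed to 2.19 CPM in control C, the lowest of the 6 libraries, where the others ran from 3.03 to 4.42 CPM. Endothelial markers were lowest in control C as well, at 186 CPM, with the others between 198 and 336 CPM. The adipocyte markers and the myofibre markers were highest in control C too, at 642 CPM, with the other libraries between 275 and 518 CPM, and at 160330 CPM, close to the 159043 CPM of control D. Among them, *Adipoq* (−1.28), *Plin1* (−1.17) and *Cfd* (−1.07) of adipocytes and *Myh4* (−1.29) and *Atp2a1* (−0.64) of myofibres had a log2 fold change with an unadjusted p under 0.05 in edgeR, and none of these genes had an adjusted p under 0.05 there. Control C was the library with the fewest counts. The part of these cell types and of depth in the members' levels was not tested.

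The promoters of the members were searched for the sequence through which ISGF3 acts. Promoter windows of 300 bases, from 250 before to 50 after the start of transcription, were taken from RefSeq on GRCm38.p6. They matched 26 of the 35 members by Entrez gene number, with 32 windows. The core of the interferon-stimulated response element (ISRE) was searched on both strands as 2 copies of GAAA with any 2 bases between them, and the gamma-activated site (GAS), which STAT dimers bind, as TTCNNNGAA. The motifs can share bases, as they do upstream of *Bst2*. The ISRE core was present in 43.8% of the members' windows, beside 3.44% of all 32851 windows, and the GAS in 21.9%, beside 8.3% of all. The 12 tested members with an ISRE match had log2 fold changes from −0.54 to 0.56 with a median of 0.071, and the 12 matched members without one from −0.15 to 0.37 with a median of 0.12. A match is a run of letters, not a bound site.

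Shown first are the windows of both members with an entry whose groups did not overlap. Capitals mark the ISRE core. That of *Cxcl10* (chr5:92348840-92349139, minus strand) holds 1 match, with its first base at −213 from the start, and that of *Xaf1* (chr11:72301379-72301678, plus strand) holds none.
Cxcl10: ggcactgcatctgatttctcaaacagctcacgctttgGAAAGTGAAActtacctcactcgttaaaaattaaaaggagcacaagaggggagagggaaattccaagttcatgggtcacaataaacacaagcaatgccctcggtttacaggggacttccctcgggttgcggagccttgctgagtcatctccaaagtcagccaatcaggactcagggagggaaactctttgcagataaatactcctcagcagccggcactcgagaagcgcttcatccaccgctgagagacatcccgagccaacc
Xaf1: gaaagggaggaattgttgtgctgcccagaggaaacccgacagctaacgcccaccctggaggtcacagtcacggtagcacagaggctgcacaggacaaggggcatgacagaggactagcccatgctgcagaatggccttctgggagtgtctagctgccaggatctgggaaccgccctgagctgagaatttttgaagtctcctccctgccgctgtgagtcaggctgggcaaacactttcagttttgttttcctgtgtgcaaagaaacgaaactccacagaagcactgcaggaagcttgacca

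*Ifit1* (chr19:34640639-34640938, plus strand) and *Ifit3* (chr19:34583279-34583578, plus strand) are shown because both were highest in control C, a choice made with their values known. Each holds 2 ISRE cores upstream of the start, at −104 and −85 in *Ifit1* and at −156 and −122 in *Ifit3*. All lie on the opposite strand and so read as 2 copies of TTTC in the lines printed.
Ifit1: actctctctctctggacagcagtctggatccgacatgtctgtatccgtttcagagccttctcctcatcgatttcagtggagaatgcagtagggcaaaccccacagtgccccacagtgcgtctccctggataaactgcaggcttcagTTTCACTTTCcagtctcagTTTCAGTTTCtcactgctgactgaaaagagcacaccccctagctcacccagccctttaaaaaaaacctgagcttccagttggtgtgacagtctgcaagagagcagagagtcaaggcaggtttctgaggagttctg
Ifit3: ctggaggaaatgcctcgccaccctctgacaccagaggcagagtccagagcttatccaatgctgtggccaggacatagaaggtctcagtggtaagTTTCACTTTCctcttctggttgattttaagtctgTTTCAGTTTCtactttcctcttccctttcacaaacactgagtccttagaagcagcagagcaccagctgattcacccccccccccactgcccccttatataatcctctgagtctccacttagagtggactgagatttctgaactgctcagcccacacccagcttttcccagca

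Other genes of the pathway were described from separate lists. Of 21 interferon genes listed, 1 passed the filter, *Ifnk*, with a log2 fold change of 0.13 ± 0.64 (SE, adjusted p = 0.960). *Ifnb1*, the gene of interferon beta, was counted 0, 0 and 2 times in control B, C and D, against 0, 10 and 1 times in miDrp1KO A, E and F. *Ifng* was counted 2, 4 and 15 times in the controls, against 3, 4 and 2 times in the miDrp1KO libraries. Summed over the 21 genes, the level was 1.47, 0.583 and 1.33 CPM in control B, C and D, against 1.56, 1.57 and 2.74 CPM in miDrp1KO A, E and F. These sums did not overlap between groups, and each rests on few counts per gene.

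The receptor, the kinases and the STAT proteins relay interferon to the nucleus. Of 13 tested genes of this list, 0 had an adjusted p under 0.05 and 2 an unadjusted p under 0.05, both lower in miDrp1KO muscle, where 6.22% of all genes passed in that direction. These were *Jak2*, at 127 ± 8.02 CPM (SD, n = 3) in control muscle against 97.5 ± 11.2 CPM (SD, n = 3) in miDrp1KO muscle, and *Stat5b*, at 200.1 ± 26.9 and 145 ± 31.6 CPM (SD, n = 3 each). Their log2 fold changes were −0.39 ± 0.17 (SE, unadjusted p = 0.0436, adjusted p = 0.446) and −0.46 ± 0.21 (SE, unadjusted p = 0.0447, adjusted p = 0.448). The median over the list was −0.21. Its summed level was 729 to 806 CPM in the controls, against 565 to 720 CPM in the miDrp1KO libraries. Myofibre markers were lower in these miDrp1KO libraries too, and their part in these values was not tested. *Ifnar1*, a receptor chain named for its role, was at 18.1, 20.3 and 19.1 CPM in control B, C and D, against 22.1, 21.5 and 22.1 CPM in miDrp1KO A, E and F. The groups did not overlap, and the log2 fold change was 0.19 ± 0.14 (SE, adjusted p = 0.649).

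Of the 27 other sensors and adaptors, all tested, 0 had an adjusted p under 0.05 and 3 an unadjusted p under 0.05, all lower in miDrp1KO muscle, beside 6.22% of all genes in that direction. Over the list 16 log2 fold changes were above 0 and 11 below, with a median of 0.11. *Mavs*, the adaptor of RIG-I and MDA5 on the mitochondrial outer membrane, was at 42.2, 28.6 and 30 CPM in control B, C and D, against 24.7, 26.9 and 20.6 CPM in miDrp1KO A, E and F. Every miDrp1KO library lay below every control, and the log2 fold change was −0.48 ± 0.19 (SE, unadjusted p = 0.027, adjusted p = 0.412), or −0.27 without control B. *Nlrx1*, a NOD-like receptor of mitochondria, was at 7.98 ± 0.983 CPM (SD, n = 3) in control muscle against 5.44 ± 0.225 CPM (SD, n = 3) in miDrp1KO muscle. Its log2 fold change was −0.56 ± 0.19 (SE, unadjusted p = 0.0129, adjusted p = 0.387). *Pqbp1*, a cofactor of cGAS, had a log2 fold change of −0.53 ± 0.19 (SE, unadjusted p = 0.0172, adjusted p = 0.392).

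The DNA sensing pair is named for its role. The gene of cGAS (*Mb21d1* in the files) was at 1.23, 0.729 and 1.22 CPM in the controls, against 1.07, 1.81 and 1.3 CPM in miDrp1KO A, E and F. The groups overlapped, with a log2 fold change of 0.38 ± 0.38 (SE, adjusted p = 0.748). The gene of STING (*Tmem173* in the files) was at 2.32, 1.31 and 1.62 CPM in the controls, against 2.72, 2.97 and 2.26 CPM in miDrp1KO A, E and F. Library F lay below control B and the other miDrp1KO libraries above all controls. For STING the log2 fold change was 0.60 ± 0.30 (SE, unadjusted p = 0.0747, adjusted p = 0.508), with an interval from −0.070 to 1.26.

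Genes that handle or release mitochondrial nucleic acids had a median log2 fold change of −0.25 over 22 genes. None passed an adjusted p of 0.05 by edgeR; 5 had an unadjusted p under 0.05 and were lower, beside 6.22% of all genes, and 1, *Endog*, was higher, beside 4.68%. *Lonp1*, the protease of the mitochondrial matrix that degrades TFAM, was at 83.1, 59.2 and 75.9 CPM in control B, C and D, against 49.7, 41 and 41 CPM in miDrp1KO A, E and F. The groups did not overlap, and the log2 fold change was −0.73 ± 0.18 (SE, unadjusted p = 0.00175, adjusted p = 0.362). The other genes were *Polg*, the mitochondrial DNA polymerase, at −0.50, *Twnk*, the replicative helicase, at −0.63, *Pink1*, the mitophagy kinase, at −0.49, *Vdac1*, the outer membrane channel, at −0.52, and the nuclease *Endog* at 0.55 on the log2 scale, or 0.32 without library F. The summed level of this list was 1922 to 2241 CPM in the controls, against 1407 to 1612 CPM in the miDrp1KO libraries. Myofibre markers were lower in the same libraries. Adipocyte markers summed to 406 to 642 CPM in the controls and 275 to 384 CPM in the miDrp1KO group, with a median log2 fold change of −1.17 over 5 genes, all below 0. The part of either cell type in these values was not tested.

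Of 21 tested negative regulators of the pathway, 2 had an unadjusted p under 0.05 and both were higher, where 4.68% of all genes passed in that direction. The median log2 fold change over these 21 was 0.15. *Socs3*, an inhibitor of JAK kinases, was at 1.75, 2.99 and 2.75 CPM in the controls, against 18.5, 4.17 and 4.42 CPM in miDrp1KO A, E and F. Library A alone was several times above the others. The log2 fold change of 1.84 ± 0.70 (SE, unadjusted p = 0.0425, adjusted p = 0.443) was 0.80 without library A. *Rnaseh2c*, a subunit of the nuclease that removes RNA from DNA, was at 4.19 ± 1.23 CPM (SD, n = 3) in control muscle against 6.45 ± 0.835 CPM (SD, n = 3) in miDrp1KO muscle, with a log2 fold change of 0.61. *Trex1*, the cytosolic DNA exonuclease, had overlapping groups and a log2 fold change of 0.30 ± 0.24 (SE).

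A further 57 interferon-stimulated genes were tested and had a median log2 fold change of 0.074, close to the 0.078 of the members. With an unadjusted p under 0.05, 2 were higher and 1 lower, no larger shares than the 4.68% and 6.22% of all genes, and 0 had an adjusted p under 0.05. The higher genes were *Ifi207* and *Oas1c*, which was under 1 CPM on average in both groups. *Ifi207* stood at 16.4, 17.8 and 16.5 CPM in the controls, against 41.9, 23.2 and 19.1 CPM in miDrp1KO A, E and F, and its log2 fold change of 0.73 was 0.35 without library A. The lower gene, *Znfx1*, an RNA helicase that works with MAVS, was at 39.6, 39.9 and 39.7 CPM in the controls, against 32, 27.9 and 17.5 CPM in the miDrp1KO libraries, with a log2 fold change of −0.62 ± 0.21 (SE, adjusted p = 0.382), or −0.39 without library F. Of 30 tested genes of the type II response and antigen presentation, 0 had an unadjusted p under 0.05, and their median was 0.083.

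**Figure D4:**
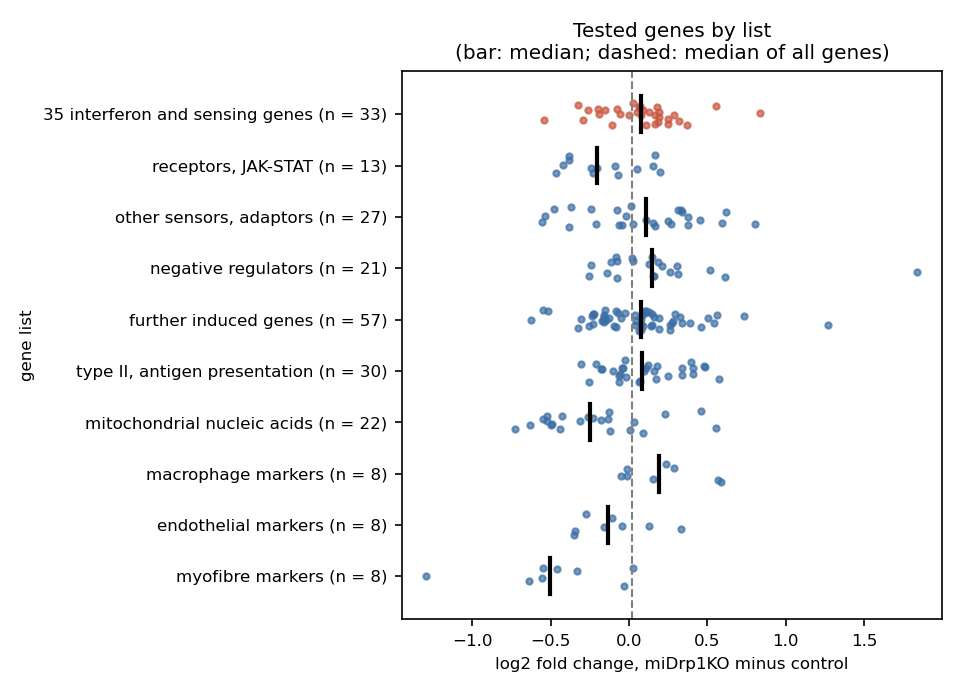
Log2 fold change (miDrp1KO minus control) of each tested gene (points), by list; black bars are list medians and the dashed line is the median of all 16483 genes, 0.017. The members and the further interferon-stimulated genes centre near 0, at 0.078 and 0.074, while the medians of the mitochondrial nucleic acid list and the myofibre markers lie at −0.25 and −0.51.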

How the data were processed

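RNA from quadriceps muscle of 3 control and 3 miDrp1KO mice was sequenced after depletion of ribosomal RNA (TruSeq Stranded Total RNA, RiboZero Gold). The authors checked reads with FastQC, aligned them to GRCm38 and counted them with Rsubread, and deposited unnormalized counts per gene. Their own test of differential expression used DESeq2 1.30.0, a tool run here as an alternative in version 1.42.0. The libraries were sequenced in pools; which library was in which pool, and how reads on overlapping or near-identical genes were counted, is not given in the sources used here. Ribosomal RNA genes held 1.48 to 24.4% of the counts of a library.

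The test was edgeR's quasi-likelihood test (edgeR 4.0.16, R 4.3.3) on TMM-scaled counts, with low genes removed by filterByExpr, a robust fit and p-values adjusted by Benjamini and Hochberg's method over 16483 genes (threshold 0.05). CPM used TMM library sizes. A level of 3 counts corresponded to 0.0500 to 0.219 CPM by library. The 35 members, the other lists and the rule for naming genes were chosen with earlier results of these data known. Full values were given to members that passed the test, to members whose groups did not overlap, to the 6 with the lowest unadjusted p, and to *Irf3*, *Tbk1*, *Ifih1*, *Ddx58*, *Zbp1*, *Isg15*, *Ifit1* and *Irf7*. Genes of other lists were named for an unadjusted p under 0.05 and a mean of at least 1 CPM, others for their role. Outside this rule, *Cd68* was named because its groups did not overlap, and *Oas1c* for its unadjusted p although it was under 1 CPM. Positions and promoters were from RefSeq (GRCm38.p6), exon lengths and transcripts from GENCODE. Alternatives were DESeq2 1.42.0, limma voom (limma 3.58.1), other normalizations and filters, a covariate for the share of ribosomal RNA, and leaving out each library in turn. The fits were also tried on simulated data, and the outcome is not reported here.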

Additional observations from a re-analysis of the deposited data

How the results depend on the processing

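Over all genes, edgeR called 2 genes, limma voom 1, a fit that adds each library's ribosomal RNA share 1, the fit with no filter on low counts 8, DESeq2 113 (18 higher, 95 lower) and, in a setting added after seeing the data, DESeq2 without independent filtering 32. Leaving out each library in turn gave 1 to 7 genes, the 7 without miDrp1KO A, and an unadjusted p under 0.05 held for 1796. The members called were 0 in every setting that gave them an adjusted p; with its independent filtering DESeq2 gave none of them one. An unadjusted p under 0.05 was reached by *Cxcl10* under DESeq2, with no filter and without A, B, C or D, by *Mx2* under limma voom and upper quartile normalization, and by *Rsad2* without E. The members' median log2 fold change ran from 0.036 without control D to 0.22 without control C; upper quartile normalization gave 0.17, where the median of all genes moved to 0.11. *Dnm1l* (adjusted p = 0.00302), *Lonp1* (0.0312), *Myh4*, *Adipoq* and *Cfd* passed the adjusted threshold under DESeq2. Without independent filtering, DESeq2 still called *Dnm1l* (adjusted p = 0.00903) and *Adipoq* (0.0382), but not *Lonp1* (0.121), *Myh4* (0.0573) or *Cfd* (0.163). For 35 genes that passed the filter, 524 values were computed under alternatives, and the sign turned in 14. *Isg15*, which failed it, turned without E. Tested genes outside these 35 were not followed one by one. *Irf3* became −0.017 with the ribosomal RNA term, and leaving out libraries gave −0.047 (without F) to 0.27. The same range was −0.019 (without E) to 0.20 for *Ddx58* and −0.55 to 0.22 (without C) for *Ifit1*. *Zbp1* became 0.10 under limma voom, 0.032 with upper quartile normalization and 0.0079 with at least 10 counts in every library, and ranged from −0.26 to 0.30 (without C) with libraries left out, at 0.082 without E. *Irf7* became −0.13 with the ribosomal RNA term and ranged from −0.12 (without D) to 0.38 (without C), below 0 without A, B, D or F. The causes were not tested. Members near or under 1 CPM, such as *Isg15*, *Cxcl10* and *Mx2*, rest on few counts. No paired analysis was made, because the sources used here give no pairing of the mice and each replicate letter names a single library.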
